A study of Xenopus laevis with 8 samples.

Results

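The genes of multiciliated cells and of cilia were followed in neurula embryos of the frog Xenopus laevis in which one side had received morpholinos. A probe set of the Affymetrix array was taken when the platform annotation gave it a single gene whose symbol, without the ending .L or .S of its chromosome copy, began with ift, dnah, dnai, dnal, dnaaf, tekt, cfap, rsph, spag, bbs, rfx, deup, cep or ccdc, or was foxj1, ccno, mcidas, gmnc, myb or plk4. This rule uses names and no measured value. It found 167 of 32635 probe sets, for 128 of 11303 named genes, and no probe set for gmnc or deup1. After removal of genes with a mean log2 value under 4 in each of the 4 groups, 111 of the 128 genes stood among the 8219 genes tested, each represented by its probe set of highest variance. The 17 others had group means between 2.14, the lowest value on any array, and 3.45. They were dnah9.S, cfap299.L, cfap410.S, tekt2.L, cep128.L, cep290.L, ift172.L, ift74.L, myb.S and the ccdc genes ccdc42.L, ccdc69.L, ccdc69.S, ccdc88a.L, ccdc102a.S, ccdc169.S, ccdc172.L and ccdc191.L. Of the 111 genes tested, 9 had a mean under 4 in some of the groups. These were bbs9.L, bbs10.L, ccdc62.L, cep68.L, cep85.L, rfxank.S, rsph3.L, tekt3.L and tekt3.S.

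Double morphants carried 2 morpholinos directed against translation of the paired methyltransferases xSuv4-20h1 and xSuv4-20h2. Their products turn monomethylated lysine 20 of histone H4 into its dimethylated and trimethylated forms. Control morphants carried an unrelated morpholino. Per the labels a total of 40 ng was injected into 2 neighbouring blastomeres on one side, whereas the methods give another dose and another number of blastomeres. The embryos, marked by a fluorescent dextran, were cut along the midline at the early neurula stage, and several sides were pooled per sample. The 4 groups were therefore the injected and the uninjected sides of control morphants and of double morphants, each with 2 arrays from 2 independent experiments, here called replicate 1 and replicate 2. No strain is given in the sources used here, and every uninjected side came from an embryo whose other side was injected. Values are log2 intensities after GCRMA, a background correction and normalization of Affymetrix arrays, and array medians lay between 5.09 and 5.19. Samples are pools of whole sides, so fewer cells of a type and less RNA per cell cannot be told apart.

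The larval skin of Xenopus carries multiciliated cells, which beat mucus over the embryo. Their fate is set around the neurula stage in the inner layer of the ectoderm, where the coactivators Gmnc and Mcidas switch on Foxj1, Rfx2, Myb and Ccno. Many centrioles are then made around deuterosomes, with Plk4 as the kinase that starts a centriole, and become basal bodies from which axonemes grow. An axoneme is built by intraflagellar transport and carries dynein arms, radial spokes, tektins and other microtubule inner proteins, and the cilia themselves appear on the skin only at later stages. Other ciliated cells are present in the neurula, such as those of the gastrocoel roof plate.

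The tested genes comprised 6 regulators, 3 genes of centriole amplification, 11 of axonemal dyneins and their assembly factors, 22 of the axoneme, 9 of intraflagellar transport, 5 of the BBSome and its partners, 21 named as centrosomal and 34 named for a coiled-coil domain. The last groups are loose, and so is the name spag within the axoneme group. Many ccdc genes have no known part in cilia, and cept1.S, a lipid enzyme, was taken in by its first letters. Of 11 symbols that mark multiciliated cells, 9 had a probe set and 7 were tested, with 10 genes in all. Their summed level, as log2 of the sum of linear values, was 11.01 to 11.15 on uninjected sides of control morphants, 11.11 to 11.33 on uninjected sides of double morphants, 11.61 to 12.01 on injected sides of control morphants and 11.46 to 11.83 on injected sides of double morphants. In this sum the injected sides thus stood above the uninjected sides in both kinds of morphant, without overlap. A sum of linear values weighs the brightest genes most, and the markers did not all move together. In double morphants tekt3.S (-1.21), dnai2.S (-0.62), tekt2.S (-0.53) and tekt3.L (-0.35) were lower on injected sides, while the other markers were higher.

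The early genes of the multiciliated programme carried the difference in the summed level. On the injected sides ccno.L, mcidas.S, rfx2.S, ccno.S and foxj1.L were higher than on the uninjected sides in all 4 pairs of sides, and all 4 injected arrays lay above all 4 uninjected arrays, as they did for 5.6% of all genes tested. The copy ccno.L, which encodes the cyclin O needed for centriole amplification, had values of 9.48 and 9.45 on uninjected and 10.24 and 10.88 on injected sides of control morphants (replicates 1 and 2). In double morphants it had 9.58 and 9.56 on uninjected and 10.63 and 10.36 on injected sides. The 4 uninjected arrays differed by little, and the highest value was that of replicate 2 of the injected control sides.

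The coactivator mcidas.S had 7.33 and 7.45 on uninjected and 8.04 and 8.63 on injected sides of control morphants. In double morphants the values were 6.83 and 6.98 on uninjected and 7.60 and 7.70 on injected sides. Injected sides were thus higher in both kinds of morphant, while the double morphants lay below the control morphants on the side of the same kind in each replicate. The ciliary transcription factor rfx2.S had 6.52 and 6.68 on uninjected and 6.92 and 7.69 on injected control sides. It had 6.27 and 6.42 on uninjected and 6.94 and 7.61 on injected sides of double morphants, with the injected values of replicate 2 the highest in both kinds.

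The second copy of cyclin O, ccno.S, had 7.27 on both uninjected control arrays, 7.49 and 8.52 on injected control sides, 7.08 and 7.25 on uninjected and 7.95 and 8.13 on injected sides of double morphants. Foxj1, the factor that drives genes of motile cilia, was read by both copies. The copy foxj1.L had 7.01 and 6.86 against 7.15 and 7.49 in control morphants and 6.84 and 6.999 against 7.31 and 7.29 in double morphants (uninjected against injected). The copy foxj1.S had 9.31 and 9.16 against 9.61 and 9.78 in control morphants, but 9.49 and 9.04 against 9.68 and 8.97 in double morphants, where the groups overlapped. The centriole kinase gene plk4.L, read by a probe set that may detect related transcripts, had 7.83 and 7.95 against 8.01 and 8.26 in control morphants and 8.06 and 7.95 against 7.84 and 8.39 in double morphants. Its groups overlapped in double morphants too.

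**Figure D1:**
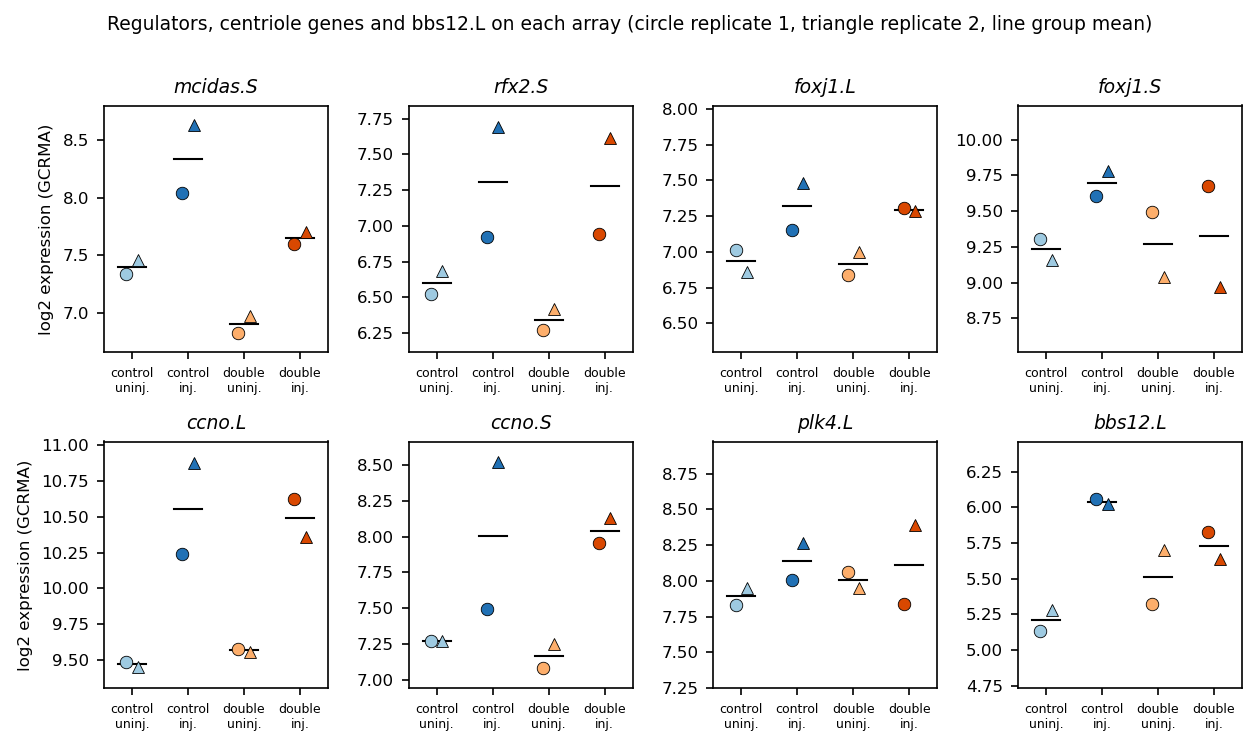
Log2 intensity of 8 genes (mcidas.S, rfx2.S, foxj1.L, foxj1.S, ccno.L, ccno.S, plk4.L and bbs12.L) on each of the 8 arrays, by group, with circles for replicate 1, triangles for replicate 2 and a line at the group mean. For mcidas.S, rfx2.S, foxj1.L, ccno.L and ccno.S every injected array lies above every uninjected array, while for foxj1.S and plk4.L the double morphant groups overlap.

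The comparisons were tested by limma on 4 group means, with the spread estimated over all 8 arrays. A gene was called when its local false discovery rate, the estimated share of unchanged genes among genes with the same statistic, was under 0.2. A Benjamini-Hochberg adjusted p over all 8219 genes is given beside it. In control morphants the injected against uninjected comparison called 3 of the 111 genes higher and 1 lower, where 0.9% of all genes were called higher and 3.11% lower. Called higher were ccno.L, by 1.09 on the log2 scale or 2.13-fold (SE 0.24, local false discovery rate 0.00096), mcidas.S by 0.94 or 1.92-fold (SE 0.23, 0.0051) and bbs12.L by 0.83 or 1.78-fold (SE 0.19, 0.0016). Their adjusted p was 0.74 each, so that by this second measure none passed. The gene bbs12.L encodes a chaperonin-like protein that helps to assemble the BBSome, the coat that carries membrane proteins in and out of cilia. Its values were 5.14 and 5.28 on uninjected and 6.06 and 6.02 on injected control sides, against 5.32 and 5.70 and then 5.82 and 5.64 in double morphants, where the sides overlapped.

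The double morphants gave injection effects of like size for these early genes, and no call. None of the 111 genes was called by limma, where 0.633% of all genes were called higher and 0.998% lower. With p left unadjusted and under 0.05, 8 members were higher and 3 lower, where 11.7% of all genes were higher and 9.51% lower. The effect was 0.93 for ccno.L (SE 0.24, adjusted p = 0.125), 0.75 for mcidas.S (SE 0.23, adjusted p = 0.152), 0.93 for rfx2.S (SE 0.33, adjusted p = 0.19), 0.87 for ccno.S (SE 0.33, adjusted p = 0.212) and 0.38 for foxj1.L (SE 0.18, adjusted p = 0.304). It was 0.06 for foxj1.S and 0.11 for plk4.L. The statistic needed for a call was larger here because the width of the empirical null, the fitted distribution of unchanged genes, was 1.72 in double morphants against 0.866 in control morphants. Each pair of sides was also taken as a block, which the shared experiment numbers allow. In that fit mcidas.S, ccno.L and rfx2.S had adjusted p values of 0.0317, 0.0361 and 0.0413 in double morphants. At an adjusted p under 0.05, 11 of the 111 genes were higher, where 15.5% of all genes were higher. Another 10 of the 111 were lower, a count that has no share of all genes beside it here and is not read further. None of the 111 was called by local false discovery rate. The same block in control morphants kept the calls of mcidas.S and ccdc3.L, lost those of ccno.L and bbs12.L and added ccdc97.L, ccdc149.S and cfap45.L, where 0.657% of all genes were called higher and 2.91% lower.

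The difference between the injection effects of double and control morphants had wide intervals around 0 for the early genes. It was -0.16 for ccno.L (95% interval -1.01 to 0.68), -0.19 for mcidas.S (-0.98 to 0.60), 0.23 for rfx2.S (-0.91 to 1.37), 0.14 for ccno.S (-1.02 to 1.29), -0.01 for foxj1.L (-0.63 to 0.62) and -0.41 for foxj1.S (-1.40 to 0.58). None of these was called. The intervals leave room for a difference as large as the injection effects themselves. Without replicate 2 of the injected control sides the difference was 0.65 for ccno.S and 0.61 for rfx2.S, and for foxj1.S the difference compares with a control effect of 0.46.

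Taking the mean of both injection effects, a contrast added after the values were seen, ccno.L was higher on injected sides by 1.01 or 2.01-fold (SE 0.17, adjusted p = 0.0928, local false discovery rate 0.23) and mcidas.S by 0.85 (SE 0.16, adjusted p = 0.11, 0.39). The values were 0.82 for rfx2.S (adjusted p = 0.16), 0.81 for ccno.S (adjusted p = 0.162) and 0.38 for foxj1.L (adjusted p = 0.197). No member was called in this limma contrast, against 0.426% of all genes called higher and 0.803% lower. With p left unadjusted and under 0.05, 11 members were higher and 1 lower, against 11.2% and 8.8% of all genes. Injected sides were higher in all 4 pairs for 31 of the 111 genes and lower in all 4 for 8, against 25.3% and 17.9% of all genes. All 4 injected arrays stood above all 4 uninjected arrays for 8 of the 111 members, against 5.6% of all genes, and below them for 0, against 3.86%. Besides the 5 early genes these were dnaaf4.L, which encodes an assembly factor of dynein arms, cep83.S, which encodes a protein of the centriole's distal appendages, and ccdc124.L, which were chosen for naming after their values were seen. By role the 8 genes held 3 of 6 regulators and 2 of 3 centriole amplification genes. These 2 were the L and S copies of ccno. The regulators foxj1.S, rfx5.L and rfxank.S and the kinase gene plk4.L overlapped between injected and uninjected arrays.

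Replicate 2 of the injected control sides stood apart in shh.L, the floor plate and notochord signal, a gene chosen after its values were seen. It read 2.76 there, against 8.71 to 9.70 on 6 other arrays and 7.11 on replicate 2 of the injected double morphant sides. Other genes of those tissues did not all follow shh.L, as given below. The same array, replicate 2 of the injected control sides, held the highest values of ccno.L, ccno.S, mcidas.S, rfx2.S and foxj1.L. Without it the control effects were 0.77 for ccno.L, 0.65 for mcidas.S, 0.22 for ccno.S, 0.32 for rfx2.S, 0.22 for foxj1.L and 0.85 for bbs12.L, and the same 4 genes were called. Without replicate 2 of the uninjected control sides none of the 4 was called, and without replicate 1 of the injected control sides bbs12.L and ccdc3.L were not. In the mean of both effects, leaving out replicate 2 of the injected control sides brought calls of ccno.L at 0.85 and mcidas.S at 0.70. Such calls were not particular to that array. Without replicate 1 of the injected control sides ccno.L, ccno.S and mcidas.S were called. The copy ccno.L was also called without replicate 1 of the uninjected control sides or replicate 2 of the injected double morphant sides.

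Genes of other tissues were read on the same arrays. Of 14 tested epidermal genes 11 were positive in the control effect, with a median of 0.36, and grhl1.L, a factor of the skin barrier, was called higher on injected sides in the mean of both effects, at 1.18. In double morphants the epidermal median was -0.03, with 0 genes called higher and 1 lower (0.633% and 0.998% of all genes). The difference between the effects called 0 epidermal genes higher and 2 lower (1.2% and 1.97% of all genes). Between injected sides 0 were called higher and 1 lower (2.4% and 3.19% of all genes). The control effect and the comparison of uninjected sides each called 1 higher and 0 lower (0.9% and 1.42% of all genes higher). The summed epidermal level was 14.83 to 14.92 on injected and 14.71 to 15.13 on uninjected control sides, and 14.75 to 15.08 on injected and 14.95 to 15.36 on uninjected sides of double morphants. The 6 genes of notochord, floor plate and gastrocoel roof plate had a median of -0.56 in control morphants, with 3 positive. Their summed level was 11.78 to 11.95 on injected and 11.54 to 12.28 on uninjected control sides. In double morphants it was 12.08 to 12.11 on injected and 11.53 to 11.97 on uninjected sides. The 13 neural plate genes had a median of -0.45 in control and -0.23 in double morphants. The summed neural plate level was 13.69 to 13.94 on injected and 13.93 to 14.03 on uninjected control sides, and 13.97 to 14.00 on injected and 13.91 to 13.92 on uninjected sides of double morphants. Ionocytes, which arise beside multiciliated cells in the inner ectoderm, had no shared direction. Of 10 tested ionocyte genes 5 were positive and 5 negative in control morphants. The proton pump gene atp12a.L on that list was called lower on injected sides, at -3.33 in the mean of both effects, whereas their factor foxi1.L had 10.77 and 10.65 against 10.72 and 11.67 in control morphants and 11.09 and 10.78 against 11.36 and 11.26 in double morphants. What share of the difference in multiciliated genes goes with the makeup of the cut sides was not tested.

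**Figure D2:**
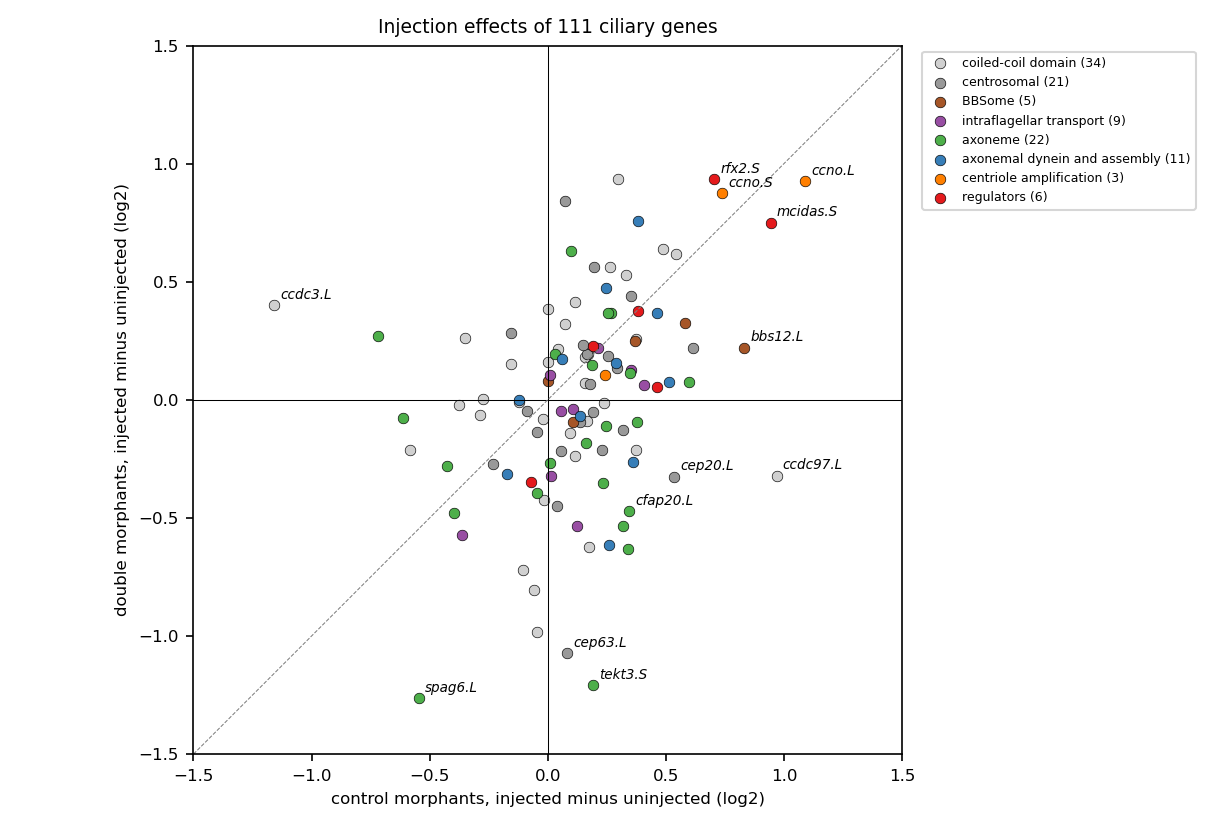
Injected minus uninjected difference (log2) of the 111 tested genes in control morphants (horizontal axis) and in double morphants (vertical axis), 1 point per gene, coloured by role. The early genes ccno.L, mcidas.S, rfx2.S and ccno.S lie at the upper right, with effects of 0.70 to 1.09 in control and 0.75 to 0.93 in double morphants, while spag6.L and tekt3.S lie at the bottom with -1.26 and -1.21 in double morphants.

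Genes of the axoneme had no direction between the sides that both kinds of morphant shared. Of 22 axoneme genes 8 were positive in the double morphant effect, with a median of -0.15 beside 0.03 over all genes, and 16 were positive in the control effect, with a median of 0.19 beside 0.04. None was called by limma in either. At an unadjusted p under 0.05, 1 was higher in double morphants (11.7% of all genes higher and 9.51% lower there). In control morphants 0 were higher (2.37% of all genes higher and 2.76% lower there). The highest double morphant effect of the group was that of spag7.L, at 0.63, whereas its other probe set past the filter gave -0.38. The double morphant median depended on the experiment, since it was 0.03 with 13 positive in replicate 1 and -0.42 with 17 negative in replicate 2. Of 11 dynein and assembly genes 6 were positive in double morphants (median 0.08) and 9 in control morphants (median 0.26), with 0 called in each. At an unadjusted p under 0.05, 1 was higher in each, where 11.7% of all genes were in double and 2.37% in control morphants. Of the 111 members 73.9% were positive in control morphants, beside 56.9% of all genes. In double morphants 52.3% of members were positive, beside 52.8% of all genes. In the difference between the effects 15 of 22 axoneme genes were negative, with a median of -0.31 beside 0.02 over all genes.

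The most negative double morphant effects were in spag6.L and tekt3.S. The central pair gene spag6.L had 7.71 and 7.49 on uninjected and 7.002 and 5.67 on injected sides of double morphants, a difference of -1.26 (SE 0.60, adjusted p = 0.299), and each of its 4 probe sets past the filter was negative, from -0.71 to -1.26, while 2 others read near the lowest value throughout. In control morphants it had 7.12 and 6.48 against 6.95 and 5.57, a difference of -0.55, whereas another of the 4 probe sets gave 0.30 there. The tektin gene tekt3.S, which encodes a filament inside the axonemal microtubules, had 6.19 and 4.44 against 4.94 and 3.26 in double morphants, a difference of -1.21 (SE 0.93, adjusted p = 0.504), and 4.64 and 2.99 against 4.68 and 3.35 in control morphants. For both genes the uninjected sides of double morphants read the highest within each replicate. The pair differences within each experiment were close for tekt3.S, at -1.24 and -1.17. Once each pair of sides formed a block its adjusted p in double morphants was 0.018, with a local false discovery rate of 0.37. An adjusted p under 0.05 was not rare in that fit, where 15.5% of all genes were higher. The share of all genes that were lower is not given here, so tekt3.S has no background of its own direction.

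On the other side, dnaaf4.L had 6.56 and 5.99 on uninjected and 7.42 and 6.64 on injected sides of double morphants, and 6.34 and 6.23 against 6.73 and 6.60 in control morphants. The mean of both effects was 0.57 (SE 0.22, adjusted p = 0.235), and it was the only one of the 11 dynein genes without overlap between injected and uninjected arrays. The related factor dnaaf5.L, at 0.42 in that mean, was positive in all 4 pairs too. The dynein light chain gene dnal1.L was negative in all 4 pairs, with 7.59 and 6.99 against 7.46 and 6.77 in control and 8.30 and 7.76 against 8.01 and 7.42 in double morphants. Dynein genes thus lay on both sides of 0.

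Axoneme genes were higher on the uninjected sides of double morphants than on those of control morphants. Of the 22 genes 20 were positive in this comparison, with a median of 0.40 beside -0.03 over all genes, and the dynein genes had a median of 0.31. The median was 0.37 with 21 of 22 positive in replicate 1 and 0.41 with 20 of 22 in replicate 2. Among the 22, tekt3.S, tekt3.L and rsph3.L read under the low-value limit of 4 on uninjected control sides, with means of 3.82, 3.84 and 3.74. Leaving out single arrays gave medians between 0.25 and 0.68 and 16 to 21 positive genes. As an example, the tektin gene tekt2.S had 7.44 and 6.98 on uninjected control sides and 8.37 and 7.94 on uninjected sides of double morphants, where both values lay above both control values. Ionocyte genes moved the same way, with 7 of 10 positive, a median of 0.25 and 3 called higher, and their summed level was 11.66 to 11.69 on uninjected control sides and 12.01 to 12.26 on uninjected sides of double morphants, without overlap. Their part in the axoneme difference was not tested.

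None of the axoneme or dynein genes was called in this comparison by limma without a block, and 2 axoneme genes were higher at an unadjusted p under 0.05, as were 1.56% of all genes. The only call among the 111 was cep20.L, where 1.42% of all genes were called higher and 1.05% lower. Because the replicate numbers pair the arrays, the fit with the replicate number as a block was run, and it called 7 genes higher and 1 lower, where 1.5% of all genes were called higher and 0.572% lower. Higher were tekt3.S by 1.49 (adjusted p = 0.101), tekt2.S by 0.95 (0.269), cfap70.L by 0.86 (0.217), dnal1.L by 0.74 (0.211), cep20.L by 0.60 (0.299), dnaaf5.S by 0.55 (0.29) and tekt1.L by 0.53 (0.312), where each value in brackets is an adjusted p. The uninjected control mean of tekt3.S was 3.82, under the low-value limit of 4. Lower was ccdc93.L, by 0.90 on the log2 scale (adjusted p = 0.217). Of the 22 axoneme genes 4 were thus called higher in the blocked fit, and of the 11 dynein genes 2. Of the other copies of these genes that were tested, tekt3.L was also positive, at 0.40, while dnaaf5.L was negative, at -0.27. The tektin gene tekt1.L had 7.03 and 6.77 on uninjected control sides and 7.58 and 7.30 on uninjected sides of double morphants. The light chain dnal1.L, with the values given above, also lay higher in both replicates.

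Between the injected sides of double and control morphants the axoneme genes showed a smaller shift, with 15 of 22 positive and a median of 0.09. It was 0.34 with 17 positive in replicate 1 and -0.05 with 10 positive in replicate 2. The 2 copies of cfap45, a microtubule inner protein, were higher in double morphants. The copy cfap45.S had 5.06 and 3.74 on injected control sides and 6.89 and 5.54 on injected sides of double morphants, without overlap, a difference of 1.81 (SE 0.61, adjusted p = 0.205), and on uninjected sides 5.40 and 4.84 against 6.29 and 5.60. The copy cfap45.L had 6.94 and 5.99 against 7.86 and 6.77 on injected sides, and 7.56 and 6.59 against 7.91 and 6.87 on uninjected sides. Neither was called without a block. With the replicate number as a block both were, at 1.81 and 0.85 (adjusted p = 0.016 and 0.0163), where 1.29% of all genes were called higher by local false discovery rate. Among the 111 genes, an adjusted p under 0.05 was less strict than the call in that fit. With it 8 were higher and 7 lower, beside 2 called higher and 1 called lower. The share of all genes passing it there is not given here.

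The larger contrast among axoneme genes lay between the experiments. Replicate 2 was lower than replicate 1 in all 4 groups for 43 of the 111 genes, against 26.3% of all genes, and higher in all 4 for 25, against 27.9%. By role this held for 17 of 22 axoneme genes, 6 of 11 dynein genes, 3 of 9 intraflagellar transport genes, 12 of 34 coiled-coil genes, 4 of 21 centrosomal genes and 1 of 5 BBSome genes, and for 0 of the 6 regulators and 0 of the 3 centriole amplification genes. The median difference was -0.50 for the axoneme and -0.40 for the dyneins, and 0.16 for the regulators and 0.20 for the centriole amplification genes, beside 0.00 over all genes. For the axoneme genes the median was -0.49 on uninjected and -0.45 on injected control sides, and -0.41 on uninjected and -0.78 on injected sides of double morphants.

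In a fit with the 4 group means and the replicate number, 32 members were lower and 10 higher in replicate 2 at an adjusted p under 0.05, where 15.6% of all genes were lower and 16.2% higher. By local false discovery rate 5 were lower and 1 higher, where 1.2% and 1.05% of all genes were, because the empirical null was wide here (3.15). The 5 lower were all of the axoneme. They were tekt3.S by -1.60 (SE 0.10, adjusted p = 0.00153), cfap300.L by -1.08 (0.00258), cfap45.L by -1.01 (0.00226), cfap36.L by -0.999 (0.00366) and tekt3.L by -0.93 (0.00363). Of the 22 axoneme genes 13 were lower at an adjusted p under 0.05 and 0 higher, and of the 11 dynein genes 5 were lower and 1, dnaaf5.S, higher.

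The values of some of these genes follow. They were called for their replicate difference, so they do not show how regular it was in the other axoneme genes. The dynein assembly gene cfap300.L had 5.33 and 4.23 on uninjected and 5.23 and 4.24 on injected control sides, and 5.61 and 4.63 and then 5.35 and 4.09 in double morphants (replicate 1 and then 2 in each group). All 4 values of replicate 1 lay above all 4 of replicate 2. The gene cfap36.L had 6.93 and 5.998, 7.06 and 6.24, 7.11 and 6.10, and 7.37 and 6.13 in the same order, again without overlap. The second tektin copy tekt3.L had 4.31 and 3.37, 4.46 and 3.68, 4.68 and 3.79, and 4.45 and 3.32, with group means close to the low-value limit.

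The members most clearly higher in replicate 2 lay outside the axoneme. The gene ccdc93.L, whose product belongs to an endosomal recycling complex, had 5.41 and 6.46 on uninjected and 5.52 and 6.94 on injected control sides, and 4.43 and 5.64 and then 5.48 and 6.45 in double morphants, a difference of 1.16 (SE 0.10, adjusted p = 0.003). Next came ccdc97.L by 0.89 (adjusted p = 0.0108), ccdc25.S by 0.83 (adjusted p = 0.0697, not passed), cep63.L by 0.81 (adjusted p = 0.0212) and ccdc62.L by 0.69 (adjusted p = 0.0498). The sign of ccdc97.L held only for the probe set of highest variance, and its brightest probe set gave -0.01.

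**Figure D3:**
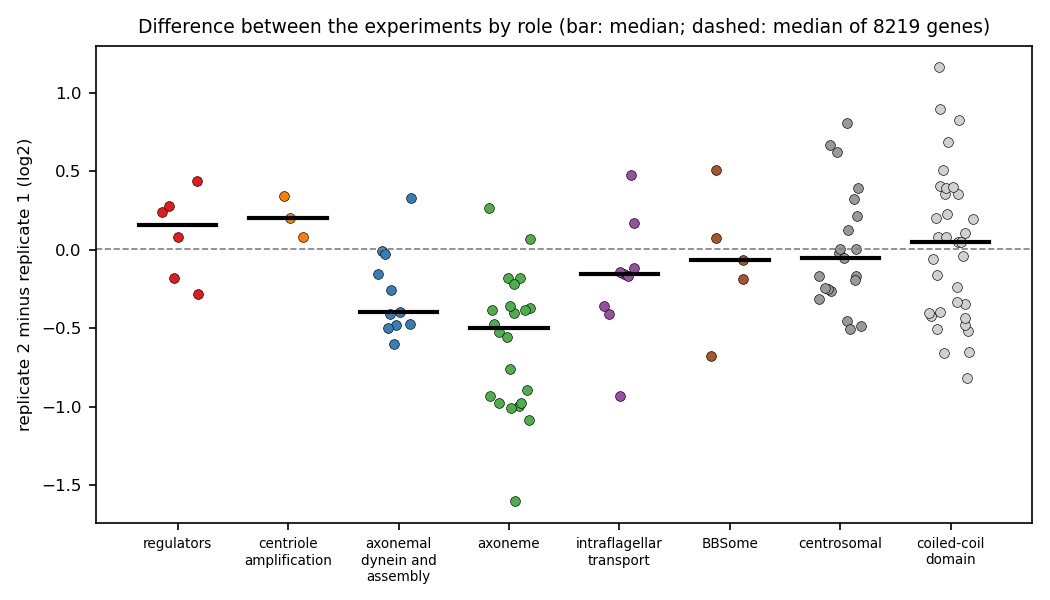
Replicate 2 minus replicate 1 (log2, over the 4 groups) of the 111 tested genes by role, 1 point per gene, with a bar at the median of each role and a dashed line at the median of all 8219 genes. The axoneme and dynein genes lie mostly below 0, with medians of -0.50 and -0.40. The regulators run from -0.28 to 0.44, with 2 of 6 below 0, and the centriole amplification genes lie above 0.

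**Figure D4:**
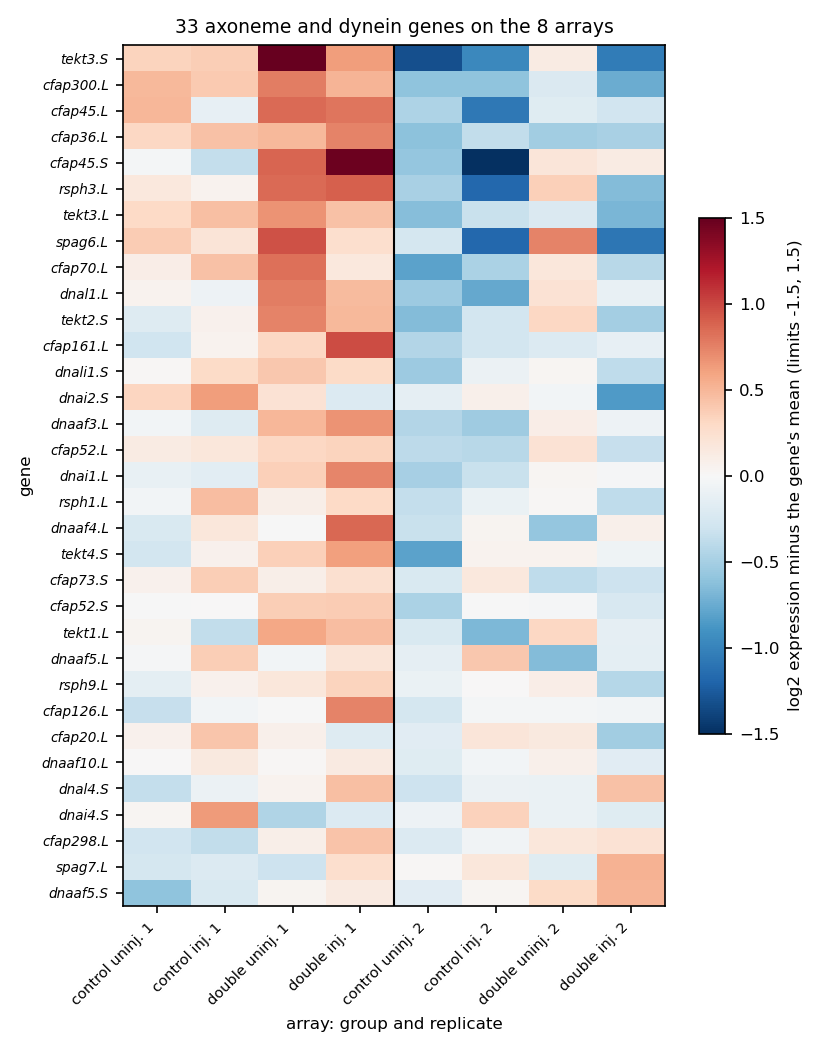
Log2 value minus the gene's mean over the 8 arrays for the 33 tested axoneme and dynein genes, ordered by the difference between replicates, with the 4 arrays of replicate 1 on the left and those of replicate 2 on the right and the colour scale ending at -1.5 and 1.5. Most genes read higher in replicate 1, and within each replicate the uninjected sides of double morphants read higher than those of control morphants for most genes.

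Any feature that separates the 2 experiments cannot be told apart from the replicate number. The replicate difference of the early genes and of the axoneme genes went in different directions in their medians, and that difference between roles was not tested.

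No transport gene was called. Among the 9 intraflagellar transport genes the double morphant effects ran from -0.57 to 0.22 and the control effects from -0.36 to 0.41, with 0 called by limma and 0 at an unadjusted p under 0.05. The most negative was ift20.S, the copy of a Golgi-linked transport subunit, with 7.81 and 7.40 against 7.54 and 6.95 in control and 8.004 and 7.79 against 7.53 and 7.11 in double morphants. It was lower on the injected side in all 4 pairs. Its other copy ift20.L had 9.70 and 9.52 against 9.77 and 9.56 in control and 9.55 and 9.73 against 9.79 and 9.39 in double morphants, with overlap. The gene ift43.L, a subunit of the retrograde complex, had the largest replicate difference of the group, at -0.94 (adjusted p = 0.00631), with 7.02 and 5.81 on uninjected control sides. These genes, like the others of their group, were chosen for naming after their values were seen.

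Of the 5 BBSome genes 4 were positive in each injection effect, and bbs12.L in control morphants was the only call. The gene bbs5.L read 4.57, within 0.001, on 5 of the 8 arrays and so gave nearly no information. The gene bbs9.L had 4.25 and 3.40 against 4.76 and 4.05 in control and 4.09 and 3.81 against 4.71 and 3.84 in double morphants, positive in all 4 pairs at values near the low-value limit.

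In the test of the difference between the injection effects 3 of the 111 genes were called lower in double morphants and 0 higher, a share near that of all genes, of which 1.97% were called lower and 1.2% higher. They were the centrosomal, axoneme and coiled-coil genes cep20.L by -0.86 (SE 0.27, adjusted p = 0.71, local false discovery rate 0.12), cfap20.L by -0.82 (SE 0.28, adjusted p = 0.71, 0.18) and ccdc9.L by -0.80 (SE 0.26, adjusted p = 0.71, 0.16). For cep20.L, which encodes a protein of centriolar satellites and basal bodies, the values were 6.63 and 6.24 against 7.09 and 6.86 in control morphants and 7.02 and 7.06 against 6.76 and 6.67 in double morphants. The injected sides were thus the higher ones in control and the lower ones in double morphants, without overlap in either. The uninjected sides alone also differed, by 0.60 (SE 0.19, adjusted p = 1, local false discovery rate 0.029), a call that was lost without replicate 2 of the uninjected control sides or without either of the uninjected double morphant arrays.

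For cfap20.L, a protein of the inner junction of ciliary doublets, the values were 8.81 and 8.58 against 9.16 and 8.92 in control morphants and 8.82 and 8.90 against 8.55 and 8.22 in double morphants. The sides did not overlap, again with opposite order. For ccdc9.L they were 6.97 and 7.14 against 7.19 and 7.28 in control and 6.91 and 7.23 against 6.35 and 6.55 in double morphants, where the injected double morphant sides were the lowest 2 of the 8 values. None of the 3 was called in the difference with the replicate block or without replicate 2 of the injected control sides, and the blocked fit with pairs of sides called tekt3.S (-1.40) and cfap70.L (-0.97) in their place, where 0.815% of all genes were called lower.

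The gene ccdc3.L, whose product is secreted in mammals, had the largest positive difference between the effects. It had 6.29 and 6.89 on uninjected and 4.99 and 5.88 on injected control sides, and 6.44 and 6.77 on uninjected and 7.13 and 6.89 on injected sides of double morphants. Only the injected control sides were low. It was called lower in the control effect (-1.16, SE 0.36, adjusted p = 0.959, local false discovery rate 0.017) and higher on injected sides of double against control morphants (1.58 or 2.98-fold, SE 0.36, adjusted p = 0.0996, 0.14). Its difference between the effects was 1.56 and was not called, but it was called without replicate 2 of the injected control sides, at 2.00, and without the filter on low values. In the comparison of injected sides 2.4% of all genes were called higher and 3.19% lower, and the other call among the 111 was ccdc9.L, at -0.78 (SE 0.19, adjusted p = 0.107, local false discovery rate 0.13).

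**Figure D5:**
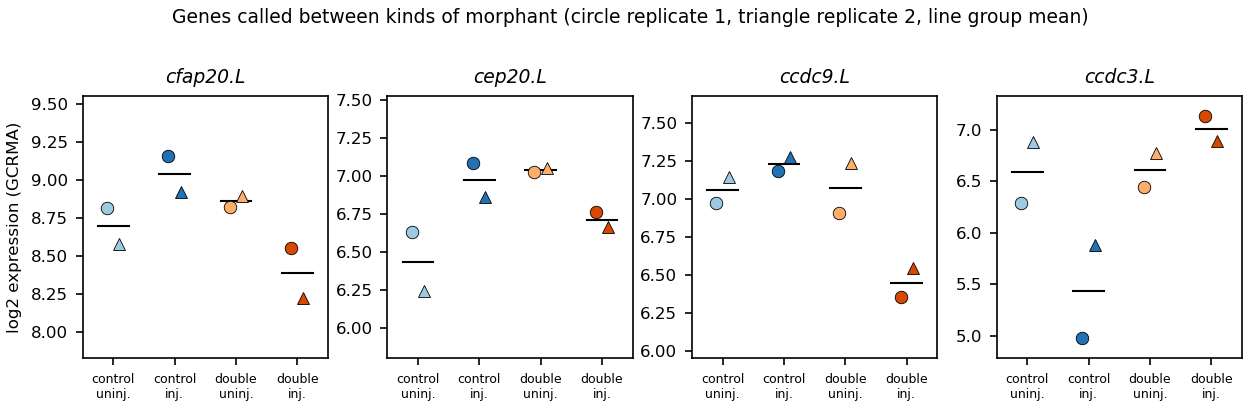
Log2 intensity of cfap20.L, cep20.L, ccdc9.L and ccdc3.L on each of the 8 arrays, by group, with circles for replicate 1, triangles for replicate 2 and a line at the group mean. In cfap20.L and cep20.L the injected side is the higher one in control morphants and the lower one in double morphants, while ccdc3.L is low on the injected control sides alone.

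Other differences of these groups were large without a call. The gene ccdc97.L had 6.94 and 7.97 on injected control sides and 5.10 and 5.53 on injected sides of double morphants, a difference of -2.14 (SE 0.56, adjusted p = 0.131). It was called with the replicate block (adjusted p = 0.0128), where 1.44% of all genes were called lower. It was also called with a theoretical null, without the filter on low values, and when any single uninjected array of either kind of morphant was left out. Its other probe set showed a smaller difference, with 8.17 and 7.96 against 7.41 and 7.37 on the same sides, and had the opposite sign in the control effect. For cep63.L, which encodes a protein of the centriole duplication machinery, the values were 7.38 and 8.001 against 7.61 and 7.93 in control and 6.89 and 8.17 against 5.95 and 6.97 in double morphants, an effect of -1.07 (SE 0.53, adjusted p = 0.315) that was negative in both double morphant pairs. For ccdc138.L they were 7.09 and 7.37 against 7.18 and 7.17 in control and 7.23 and 7.47 against 6.64 and 6.44 in double morphants, an effect of -0.81 (SE 0.19, adjusted p = 0.107).

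The largest positive double morphant effects outside the early genes were ccdc93.L at 0.94 (SE 0.69, adjusted p = 0.482) and cep41.S at 0.84 (SE 0.58, adjusted p = 0.456), a gene of tubulin modification in cilia. The second of these rested on a single low array, since cep41.S had 6.59 and 4.83 on uninjected and 6.85 and 6.25 on injected sides of double morphants. In the difference between the effects, the largest positive values after ccdc3.L were cfap45.S at 0.99, cep41.S at 0.77, ccdc93.L at 0.64 and ccdc59.L at 0.61, and the most negative were tekt3.S at -1.40, ccdc97.L at -1.29, cep63.L at -1.15, cfap70.L at -0.97 and ccdc124.S at -0.94. None of these was called over all 8 arrays without a block, and ccdc124.S was called without replicate 2 of the injected double morphant sides. The gene cep83.S had 5.59 and 5.54 against 5.71 and 5.80 in control and 5.62 and 5.63 against 6.19 and 6.18 in double morphants, with pairs that differed little between experiments.

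The regulators named rfx5.L and rfxank.S belong to the complex that acts on class II genes of the immune system and not to the ciliary programme. The gene rfx5.L had 8.12 and 8.37 against 8.40 and 8.47 in control and 8.13 and 8.35 against 8.18 and 8.75 in double morphants, and rfxank.S had 4.44 and 4.19 against 4.56 and 3.92 and then 3.89 and 3.93 against 3.49 and 3.63. Neither was called in any comparison of groups with the empirical null and the filter on low values over all 8 arrays. With a theoretical null, or without the filter, rfxank.S was called lower on injected sides of double than of control morphants.

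The genome of Xenopus laevis holds L and S copies of many genes, and both were tested for 13 members. The copies had the same sign for 9 of 13 in the double morphant effect, 9 in the control effect and 10 between uninjected sides. In cyclin O both copies were positive, whereas ccdc124.L was positive (0.53) and ccdc124.S negative (-0.98) in double morphants. Whether a probe set also reads the other copy was not tested. Of 21 genes with more than 1 probe set past the filter, 7 had probe sets of opposite sign in the double morphant effect. They were ccdc12.L, ccdc22.S, ccdc47.S, ccdc50.L, ift80.L, plk4.L and spag7.L. In the control effect 7 had probe sets of opposite sign, namely ccdc47.S, ccdc50.L, ccdc59.L, ccdc97.L, cep43.L, spag6.L and spag7.L.

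A list of ciliary genes that the naming rule does not take in was read as well. Of 34 such genes tested, among them copies of tubb4b and kif3a, 22 were positive in the double morphant effect (median 0.21) and 25 in the control effect (median 0.20), with 0 called. At an unadjusted p under 0.05, 2 were higher and 1 lower in double morphants, where 11.7% and 9.51% of all genes were. In control morphants 3 were higher and 0 lower, where 2.37% and 2.76% of all genes were. Between uninjected sides 25 were positive with a median of 0.21 and 2 were called higher (1.42% of all genes), and 15 of 34 were lower in replicate 2 in all 4 groups. The tubulin gene tubb4b.S was called lower in the difference between the effects, at -0.93. Of 19 centriole genes outside the rule 16 were positive in the mean of both injection effects, with a median of 0.27 and 0 called. Without adjustment, 5 of the 19 passed a p of 0.05 upward and 3 downward, as did 11.2% and 8.8% of all genes, and 0 of them were lower in replicate 2 in all 4 groups while 8 were higher.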

How the data were processed

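The 8 arrays hold total RNA of pooled sides, 2 arrays for each of 4 groups. The deposited values are log2 intensities that the authors made by GCRMA (named in the submitters' processing notes, version not given in the sources used here), with 1 value per probe set, and they were used as deposited. Genes were named from the platform annotation, in which 15505 probe sets had 1 gene, 279 several and 16851 none. The methods' filter on detection needs probe-level data, so a group mean of at least 4 in 1 of 4 groups took its place. Each gene was represented by its probe set of highest variance. Group means were fitted with limma 3.58.1 in R 4.3.3 (4 residual and 2.08 prior degrees of freedom, or 3 residual with the replicate number as a term), and the local false discovery rate was fitted with an empirical null by maximum likelihood (120 bins, 7 spline degrees of freedom). The scripts were tested on simulated data. The number of arrays limits the precision, and with 2 per group p-values measure the spread between these pools.

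Members and lists were chosen with earlier results of these data known. Named were each regulator and centriole amplification gene, each member called in a comparison of groups, the 5 largest changes in each direction in double morphants, in the difference between the effects and between replicates, and genes whose probe sets disagreed in sign. Other genes were chosen after their values were seen.

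The methods state 2 independent experiments, and arrays of the same replicate number deviated together, with correlations of 0.50 to 0.80 over all genes between every pair of groups. The numbers were therefore taken to pair the arrays, and blocked fits were run as alternatives. The other alternatives were the form of the null, the adjusted p, the filter, the choice of probe set, centring, and leaving out each array. No sequence was available for printing.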

Additional observations from a re-analysis of the deposited data

Results flagged for a closer look

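For 3 genes the injection effect differed between double and control morphants by the test of the difference itself, without a block. This is 3 of 111, all lower, where 1.97% of all genes were called lower and 1.2% higher, so the count is near that background. The value was -0.86 for cep20.L, -0.82 for cfap20.L and -0.80 for ccdc9.L, each lower in double morphants, at local false discovery rates of 0.12, 0.18 and 0.16. For each gene the injected side was higher than the uninjected side in both control pairs and lower in both double morphant pairs. Their adjusted p was 0.71. The calls rested on few arrays, since leaving out each of the 8 arrays in turn kept the call of cep20.L without replicate 1 of the uninjected control sides, that of ccdc9.L without replicate 1 of the uninjected double morphant sides, and no other call of the 3.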

How the results depend on the processing

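The counts of called members depended strongly on the setting. The shares of all genes called under the other settings are mostly not given here. The counts thus show how far the calls moved and are not read as a trait of the members. A theoretical null in place of the empirical one changed the counts to 14 in double morphants (from 0), 1 in the difference between the effects (from 3), 20 between injected sides (from 2), 0 between uninjected sides (from 1), 65 between replicates (from 6) and 16 in the mean of both effects (from 0). Without the filter on low values they were 7 in double and 14 in control morphants (from 4), 11 in the difference, 17 between injected and 14 between uninjected sides, 19 between replicates and 8 in the mean of both effects. With z values in place of t statistics they were 0 in control morphants, in the difference, between injected sides, between uninjected sides and between replicates. An adjusted p under 0.05 gave 0 in the first 4 of these and 42 between replicates. With all probe sets they were 5 in the difference, 2 between uninjected sides and 1 in the mean of both effects, where the brightest probe set also gave 1. A group mean of at least 6 gave 2 between uninjected sides and 2 between replicates, and centring gave 3 between uninjected sides.

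Leaving out each array in turn gave 0 to 1 calls in double morphants, 0 to 6 in control morphants, 0 to 2 in the difference, 0 to 3 between injected sides, 1 to 3 between uninjected sides, 3 to 7 between replicates and 0 to 3 in the mean of both effects. Between injected sides ccdc3.L kept its call without replicate 2 of the injected control sides or without either uninjected control array, and ccdc9.L without either uninjected double morphant array. Between replicates cfap300.L, cfap45.L and tekt3.S kept theirs without any of the 8 arrays, whereas cfap36.L and tekt3.L lost theirs without any uninjected array and ccdc93.L without either uninjected double morphant array. With pairs of sides as a replicate block 5 members were called in control morphants, 2 of them shared with the unblocked fit, and 2 in the difference, 0 shared. With the replicate number as a block there were 3 in control morphants, 1 in the difference, 3 between injected sides and 8 between uninjected sides. Both blocks gave 0 in double morphants and in the mean of both effects.

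Direction changed under centring for rfxank.S in the control effect (0.0017) and for foxj1.L (0.0031) and rfx5.L (0.015) between uninjected sides, and with the brightest probe set for ccdc97.L between replicates (-0.0116). Without single arrays the sign also changed in these ranges. In the double morphant effect they were -0.30 to 0.41 for foxj1.S, -0.17 to 0.38 for plk4.L, -0.0543 to 0.51 for rfx5.L and -0.0387 to 1.73 for cep41.S, and in the control effect -0.39 to 0.25 for rfxank.S. In the difference they were -0.48 to 0.16 for ccno.L, -0.38 to 0.65 for ccno.S, -0.17 to 0.16 for foxj1.L, -0.49 to 0.10 for mcidas.S, -0.41 to 0.14 for plk4.L, -0.15 to 0.615 for rfx2.S, -0.245 to 0.32 for rfx5.L, -0.60 to 0.0441 for rfxank.S, -0.11 to 1.65 for cep41.S and -0.0688 to 1.35 for ccdc93.L. Between injected sides they were -0.38 to 0.26 for ccno.L, -0.48 to 0.55 for ccno.S, -0.19 to 0.14 for foxj1.L, -0.30 to 0.25 for plk4.L, -0.41 to 0.36 for rfx2.S and -0.25 to 0.31 for rfx5.L, and between uninjected sides -0.10 to 0.0637 for foxj1.L, -0.19 to 0.26 for foxj1.S and -0.14 to 0.12 for rfx5.L. The cause was not tested. Over 85 values of named genes, the other settings gave 711 on the same side of the threshold with the same sign, 46 that lost and 36 that gained a call, and leaving out arrays gave 576, 48 and 16. With 4 residual degrees of freedom a local false discovery rate under 0.2 does not bound the share of wrong calls.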
